A study of Mus musculus with 4 samples.

Results

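The pre-B-cell receptor and B-lineage genes comprised 9 mouse genes, Igll1, Vpreb1, Vpreb3, Cd79a, Cd79b, Blnk, Ebf1, Pax5 and Pou2af1. They were represented by 10 of the 55681 non-control probes of an Agilent one-colour array and by 9 of the 21154 genes that could be named. Members were found by matching the transcript accession of each probe to these symbols, and the genes were chosen from earlier results of these arrays, which included their JQ1 and cell type differences. Every difference below is therefore a description, and no test supports it.

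The pre-B-cell receptor is the first antigen-receptor-like complex of the B lineage. It pairs an immunoglobulin heavy chain with a surrogate light chain made by Vpreb1 or its near copy Vpreb2 together with Igll1. It signals through the immunoglobulin alpha and beta chains (Cd79a, Cd79b) and the adaptor Blnk. Ebf1 and Pax5 are the transcription factors that specify the lineage and commit cells to it, and Pou2af1 is a B-cell coactivator that binds octamer factors on DNA. These genes are usually low or silent in stem cells and in megakaryocyte and erythroid progenitors.

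The 4 groups, with 1 array each, were the LSK and MEP cells of DMSO-treated and of JQ1-treated mice. LSK cells, which lack lineage markers and carry c-Kit and Sca-1, hold stem cells and multipotent progenitors, and MEP cells are megakaryocyte and erythroid progenitors. All groups shared the genotype JAK2V617F/Ezh2Δ/Δ on the C57BL/6 strain. Bone marrow from JAK2V617F;Ezh2flox/flox;Cre-ERT2 donors had been grafted into lethally irradiated wild-type CD45.1+ hosts, Ezh2 had been deleted, and JQ1, a BET bromodomain inhibitor, or its solvent DMSO had been given for 2 weeks before sorting. There was no arm with intact Ezh2 or without JAK2V617F, so the JQ1 differences are those in this genotype. The age of the mice, the number sorted per array, the locus driving Cre-ERT2, the antibodies of the lineage gate and whether host cells were gated out are not given in the sources used here. Each array was hybridised with labelled product of 20 ng of total RNA.

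Levels are the log2 of the scanner signal relative to the 75th percentile signal of the same array, so 0 is that percentile. Differences are relative to the median measured gene of the comparison, and a gene was measured when its probe was well above background on both arrays. A gene was counted as lower or higher when it differed by 2-fold, which is 1 on the log2 scale. With 1 array per group no difference has a replicate check. The available error measures are the scanner software's error and the spread between different probes of a gene. The SD of that spread was 0.26 log2 for the JQ1 difference in LSK and 0.39 for that in MEP. It was 0.37 for the cell type difference on the DMSO arrays and 0.27 for that on the JQ1 arrays. Neither measure covers mice, sorts or RNA preparation. Between 45.2% and 53.2% of probes were well above background per array, and the 75th percentile signals ran from 210 to 327. The DMSO MEP array stood apart, correlating at 0.973 to 0.976 with the others across 23005 probes, against 0.979 to 0.991 among those, and it cannot be left out because it is the only array of its group.

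The labels of the 2 cell types were checked against markers. Of the 12 MEP markers measured under DMSO, 10 were 2-fold higher in MEP than in LSK, among them Gata1 by 2.61 and Klf1 by 3.79 log2, and Ly6a, which encodes Sca-1, was at -4.58. Of 13 LSK markers, 4 were 2-fold lower in MEP under DMSO and 1, Slamf1, was higher.

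The promoters of Igll1, Vpreb1, Vpreb3 and Blnk are shown because their genes carry the largest JQ1 differences among the members other than the transcriptional regulators. Each line holds the 250 bases before the RefSeq start of the gene, read 5′ to 3′ on the strand of the gene in GRCm38.p6. Igll1 lies at chr16:16863986-16864235 on the minus strand, Vpreb1 at chr16:16869256-16869505 on the minus strand, Vpreb3 at chr10:75948050-75948299 on the plus strand and Blnk at chr19:40994222-40994471 on the minus strand. Capitals mark matches to the octamer ATGCAAAT on either strand or to CCCNNGGG, the core of the EBF1 motif.
Igll1: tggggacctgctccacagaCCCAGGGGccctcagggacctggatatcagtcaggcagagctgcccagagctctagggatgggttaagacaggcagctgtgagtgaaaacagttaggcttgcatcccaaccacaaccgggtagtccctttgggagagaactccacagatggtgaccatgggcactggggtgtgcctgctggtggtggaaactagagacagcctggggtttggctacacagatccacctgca
Vpreb1: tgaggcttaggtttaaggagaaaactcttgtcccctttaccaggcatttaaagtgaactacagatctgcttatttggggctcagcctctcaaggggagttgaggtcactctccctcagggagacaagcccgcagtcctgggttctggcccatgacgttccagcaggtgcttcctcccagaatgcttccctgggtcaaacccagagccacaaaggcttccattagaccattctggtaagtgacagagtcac
Vpreb3: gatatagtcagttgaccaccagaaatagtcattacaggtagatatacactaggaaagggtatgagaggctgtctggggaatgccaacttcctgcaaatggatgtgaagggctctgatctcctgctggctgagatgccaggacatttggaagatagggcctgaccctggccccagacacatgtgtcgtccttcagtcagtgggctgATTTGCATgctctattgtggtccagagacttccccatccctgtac
Blnk: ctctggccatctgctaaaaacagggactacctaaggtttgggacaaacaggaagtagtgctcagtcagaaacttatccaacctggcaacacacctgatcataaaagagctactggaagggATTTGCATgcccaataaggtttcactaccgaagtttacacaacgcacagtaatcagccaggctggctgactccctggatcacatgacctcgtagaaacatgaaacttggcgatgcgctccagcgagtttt

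Igll1 and Vpreb1 are adjacent protein-coding genes in this annotation, and Blnk is adjacent to Dntt. The octamer, searched on both strands, was found in the windows of Vpreb3 and Blnk, which were 2 of 9 member promoters, against 1.6% of all 32851 promoters. The 9 promoters belong to 8 of the genes, since the RefSeq table used here gives Ebf1 2 of them and the promoter of Cd79b was not analysed here. The first base of the octamer lay 45 bases before the start of Vpreb3 and 130 before that of Blnk. CCCNNGGG, which reads the same on both strands, was found in the Igll1 window, 1 of the 9, against 11.8% of all promoters. The E-box CANNTG, also the same on both strands, was in 8 of the 9 and in 66.2% of all promoters. These matches describe letters in a window and show no binding.

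In LSK cells, all 8 members that could be measured were lower on the JQ1 array by 2-fold or more, where 3.22% of the 12326 measured genes were. None was 2-fold higher, against 0.544% of measured genes, and 3.76% of those differed by 2-fold either way. Their differences ran from -2.78 to -1.38 log2 with a median of -2.45, against 0 for all measured genes by construction. The scanner's error of a member's difference was 0.20 to 0.28 log2. The earlier results that grouped these genes used the same contrast, so the count is not evidence of its own.

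The genes Igll1, Vpreb1 and Vpreb3 read 5.50- to 6.88-fold lower under JQ1 in LSK. Vpreb3, whose product associates with heavy chains in precursor B cells, read 6.24 (DMSO) and 3.52 (JQ1) in LSK, and 4.37 (DMSO) and 2.84 (JQ1) in MEP. It was high on the DMSO LSK array and lower on the other arrays, and it was 6.88-fold lower under JQ1 in LSK, the 7th lowest of all measured genes. Igll1, the lambda5 part of the surrogate light chain, read 3.98, 1.48, 2.50 and 0.46 in the same order of arrays and was 5.91-fold lower. Vpreb1, the other part, read 6.52, 4.12, 4.91 and 3.38 and was 5.50-fold lower. Its near copy Vpreb2 read 3.61, 1.13, 1.94 and 0.25 and was 5.82-fold lower. The probes of this gene pair may share targets, so the 2 values are not independent.

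Among the signalling genes, the adaptor Blnk read 5.05 (DMSO) and 2.59 (JQ1) in LSK, and 3.39 (DMSO) and 1.89 (JQ1) in MEP. Its difference in LSK was -2.52 log2, while its neighbour Dntt, the terminal transferase of early lymphoid cells, was at -0.12. Cd79a, the immunoglobulin alpha chain, read -0.57, -2.78, -2.39 and -2.93. Its raw signals were 142, 35.6, 62.2 and 30.6, near the lowest signals called well above background, which were 17.2 to 20.1 per array. It was 4.84-fold lower in LSK, and that difference was -1.25 rather than -2.27 log2 when background was corrected by normexp. Cd79b, the beta chain, read 5.47, 4.15, 4.20 and 3.46. It had the smallest difference of the 8 genes in LSK, -1.38 log2 or 2.61-fold, and ranked 206th from the lowest of the 12326 measured genes, where the next member, Cd79a, ranked 45th.

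Of the transcriptional regulators, Ebf1 read 0.43 (DMSO) and -1.85 (JQ1) in LSK, and -0.52 (DMSO) and -2.27 (JQ1) in MEP. It was 5.09-fold lower in LSK, and that difference was -1.54 rather than -2.35 log2 with normexp correction. Pou2af1 read 2.69, 0.30, 1.00 and -0.33 and was 5.45-fold lower. Pax5 was not well above background on any array with either of its 2 probes. The raw signals of the Pax5 probes ran from 3.85 to 16.1, so no level or fold is given for it, and Pax5 counts among the 9 genes as unmeasured.

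**Figure D1:**
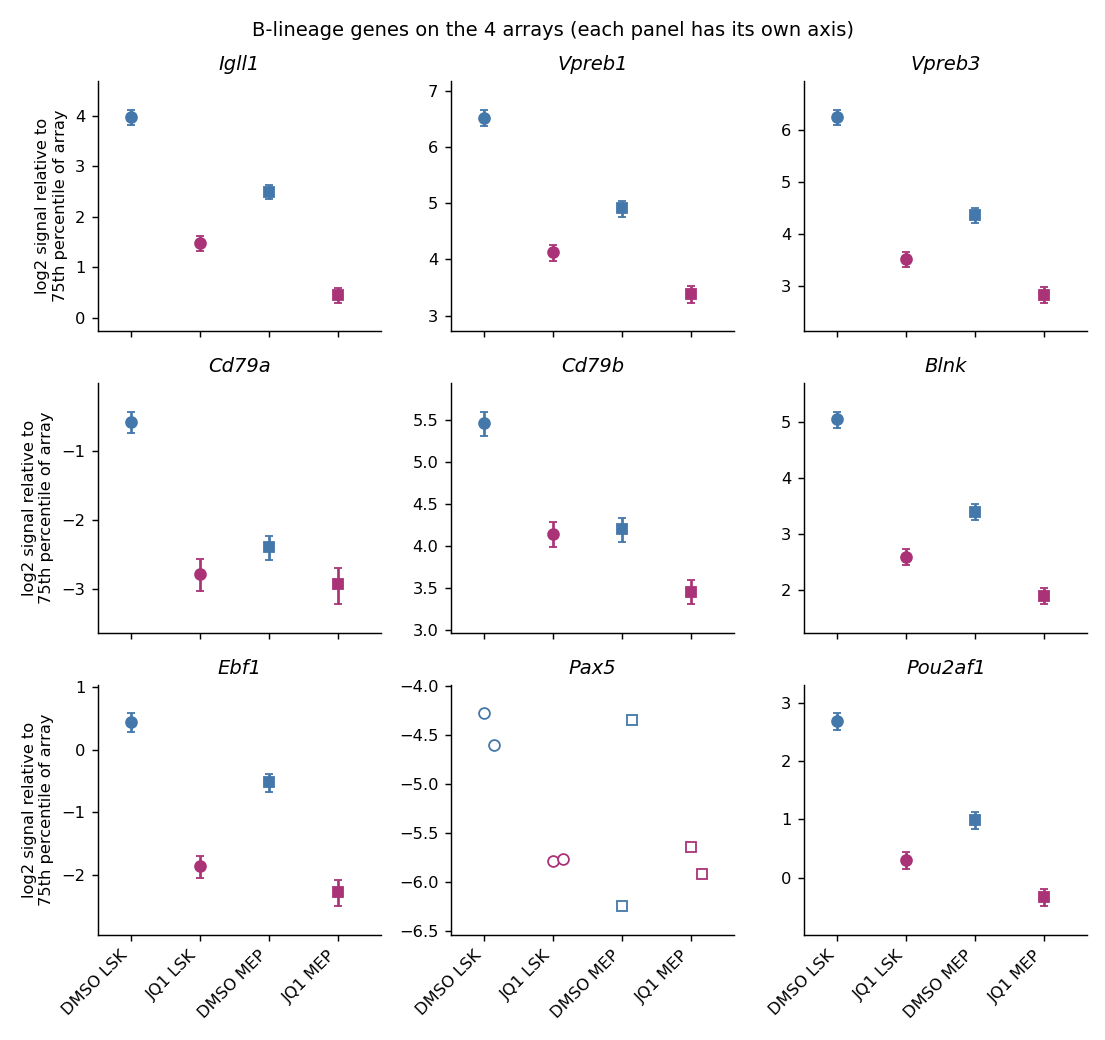
Level of each B-lineage gene on the 4 arrays, as log2 signal relative to the 75th percentile of the array, with bars for the scanner's error, in 1 panel per gene with its own axis. Circles are LSK and squares MEP, blue is DMSO and purple JQ1, and open symbols were not well above background, as for both Pax5 probes. In the 8 measured genes the DMSO LSK array is highest and the JQ1 MEP array lowest.

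The 8 measured genes shared an order of arrays. Each was highest on DMSO LSK, then DMSO MEP, then JQ1 LSK, and lowest on JQ1 MEP. Some neighbours in that order differed by little: DMSO MEP and JQ1 LSK lay 0.057 log2 apart for Cd79b and 0.39 apart for Cd79a, and JQ1 LSK and JQ1 MEP lay 0.15 apart for Cd79a. No probe SD was taken for DMSO MEP against JQ1 LSK, but the Cd79b gap is below all those given above. The Cd79a gap of 0.15 is below the probe SD of its comparison, 0.27. Under scaling to spike-in probes without centring, the order changed for Ebf1 and Cd79b, where DMSO MEP read highest, and with normexp correction it changed for Cd79a, where DMSO MEP read lowest.

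In MEP cells, 7 of the 8 measured members were lower on the JQ1 array by 2-fold, where 5.77% of 12540 measured genes were. None was higher, against 0.981%, and 6.75% of measured genes differed either way. Their median difference was -1.85 log2. Igll1 was the lowest member at -2.38 log2 (5.22-fold), followed by Ebf1 at -2.08. Ebf1 was at -1.23 with normexp correction and -1.72 with quantile normalization, in both closer to the median gene than Vpreb3, Vpreb1 and Blnk. Vpreb3, Vpreb1 and Blnk lay close together at -1.87, -1.86 and -1.84, and Pou2af1 was at -1.67. Cd79b was at -1.08, or 2.12-fold. Cd79a, at -0.88, did not reach 2-fold, and its value was -0.27 with normexp correction and -0.36 with quantile normalization. The scanner's error of these differences was 0.20 to 0.32 log2. In bulk samples, fewer cells of a type and less RNA per cell cannot be told apart, and this holds for every difference given here.

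Of the 12011 genes measured on all 4 arrays, 75 (0.624%) were 2-fold lower under JQ1 in both cell types, and 7 of the 8 measured members were among them. The pair of arrays behind the LSK difference and the pair behind the MEP difference share no array but were on a single slide.

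The JQ1 difference was smaller in size in MEP than in LSK for each of the 8 genes, with a median of 0.64 log2 for MEP minus LSK against 0.010 for all genes, although this median became -0.66 under spike-in scaling without centring. The gap was 0.18 for Igll1, 0.26 for Ebf1 and 0.30 for Cd79b, below the combined probe SD of 0.47. It was 0.60 for Vpreb1, 0.68 for Blnk, 0.78 for Pou2af1, 0.91 for Vpreb3 and 1.40 for Cd79a. No test of these gaps was possible with 1 array per group, and all of them include the DMSO MEP array.

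**Figure D2:**
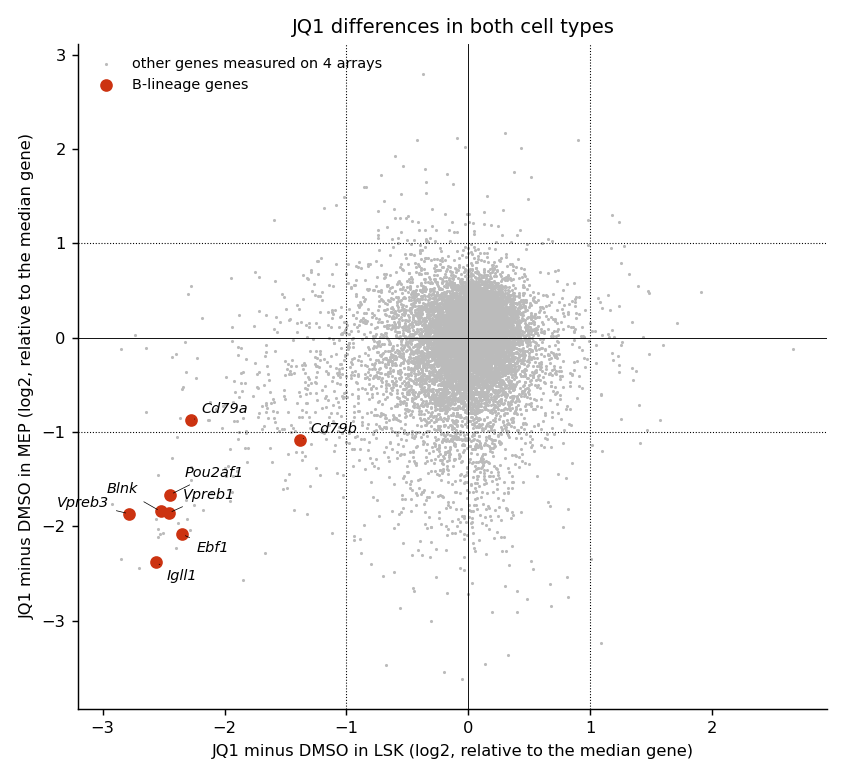
JQ1 minus DMSO in LSK (horizontal) against JQ1 minus DMSO in MEP (vertical), both in log2 relative to the median gene, for genes measured on all 4 arrays. Each grey point is a gene, red points are the 8 measured B-lineage genes, and dotted lines mark 2-fold. Of the red points, 7 lie in the lower left corner beyond both lines and Cd79a lies just above the lower line.

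The members also differed between the cell types. Under DMSO, 7 of the 8 were 2-fold lower in MEP than in LSK, where 4.31% of 12403 measured genes were. None was higher, against 5.68%, and 9.99% of measured genes differed either way. Vpreb3 was lowest at -1.65 log2, Cd79a was at -1.61, Pou2af1 at -1.47, Blnk at -1.43, Vpreb1 at -1.39, Igll1 at -1.26 and Cd79b at -1.05. Ebf1, at -0.74, did not reach 2-fold. Under spike-in scaling without centring, where the median gene itself read 1.05 higher in MEP, 0 of the 8 members were 2-fold apart. Ebf1 and Cd79b then read 0.31 and 0.0036, and the other members -0.60 to -0.21.

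Under JQ1 the median difference between the cell types was -0.76 log2, against -1.41 under DMSO. Spike-in scaling without centring turned that order, with 3 members 2-fold lower under JQ1 and 0 under DMSO. In the scaling used here only Igll1, at -1.09 log2, was 2-fold lower in MEP than in LSK among the 8 genes, where 4.01% of 12257 measured genes were. None was higher, against 3.92%, and 7.92% of measured genes differed either way. The others ran from -0.81 for Vpreb1 to -0.22 for Cd79a. All 8 lay below the median gene.

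The other genes of the B-cell programme were taken from lists that hold no member. Of 71 genes of these lists measured in LSK, 18 were 2-fold lower under JQ1 and 0 higher, against 3.22% and 0.544% of measured genes. Under spike-in scaling without centring the counts became 12 lower and 7 higher. The median gene itself was then at 0.72, and no share of all measured genes was taken in that setting. In MEP 14 of 67 were lower and 0 higher, against 5.77% and 0.981%. With normexp correction 14 were lower in LSK and 7 in MEP, and no share of all measured genes was taken for it. Of the 18 measured B-lineage surface and effector genes, 9 were 2-fold lower under JQ1 in LSK and 0 higher, with a median of -1.27 log2. In MEP 8 of 15 were lower and 0 higher, with a median of -1.20. Bst1, an ectoenzyme of bone marrow B precursors, was at -2.53 and -2.08, and Cd83, an activation marker, at -2.25 and -1.77. Cd40, a costimulatory receptor, was at -1.67 and -2.28. Ms4a1, which encodes CD20, was at -2.33 in LSK and was not well above background on JQ1 MEP.

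The measured kinases and effectors downstream of the receptor lay near the median gene. Of 17 measured in each cell type, 0 were 2-fold lower and 0 higher under JQ1, with medians of 0.014 in LSK and 0.071 in MEP. These counts leave out Blk, which was not well above background on any array. They also leave out Bank1 and Pik3ap1, above background only on JQ1 LSK, at -1.98 and -3.20, and on DMSO MEP, at -2.90 and -3.37. Prkcb, a protein kinase C, was at -0.73 log2 in LSK. Lyn, a Src family kinase, was at -0.57 and Dapp1, a phosphoinositide-binding adaptor, at 0.55. In MEP, Malt1, a paracaspase of NF-kappaB signalling, was at -0.44 and Fyn, another Src family kinase, at -0.42. The measured genes of this list also act in myeloid and other progenitor cells.

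Of 26 other lymphoid transcription regulators measured in LSK, 7 were 2-fold lower under JQ1 and 0 higher, with a median of -0.21. In MEP 4 of 25 were lower and 0 higher, with a median of -0.28. Lef1, a Wnt pathway factor used by B and T precursors, was at -2.31 in LSK and -1.92 in MEP, and Id3, an inhibitor of E proteins, at -1.94 and -1.63. Spib, an Ets factor of B and plasmacytoid dendritic cells, was at -2.13 and -0.87, and Irf8 at -1.47 and -0.39. Irf4 was at -2.03 in LSK and was not well above background on JQ1 MEP. Its level on JQ1 LSK was -2.82, where the lowest called well above background was -3.80. Mef2c was at -0.09 in LSK and -1.19 in MEP. The E protein gene Tcf3 was at -0.21 and 0.18, and was picked for mention with its values known.

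Of the early lymphoid priming and recombination genes, 12 were measured. Of these, 3 were 2-fold lower in LSK (Rag1, Ly6d and Ccr9) and 2 in MEP (Rag2 and Notch1), with 0 higher in either and medians of -0.16 and -0.26. Rag1, a subunit of the recombinase, was at -2.43 in LSK and -0.21 in MEP, and Rag2, its partner, at -0.95 and -1.18. The level of Rag1 on JQ1 LSK was -2.76, where the lowest called well above background was -3.80. Ly6d, a marker of B-cell-biased lymphoid progenitors, was at -1.66 and -0.16. The interleukin-7 receptor gene Il7r was at -0.88 and 0.36. Ly6d and Il7r stand in the B-lineage surface list as well. Flt3 and Dntt, named after their values were seen, were at -0.13 and -0.12 in LSK.

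**Figure D3:**
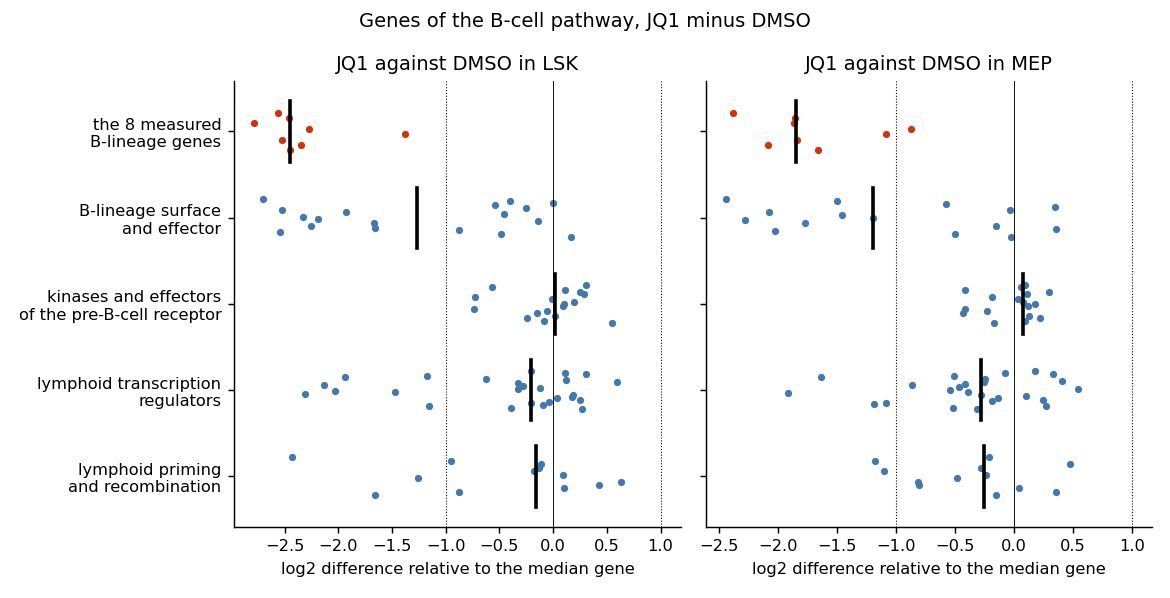
JQ1 minus DMSO in log2 relative to the median gene, in LSK (left) and MEP (right), for the 8 measured B-lineage genes (red) and 4 lists of other genes of the B-cell pathway (blue). Each point is a gene measured in that comparison, black bars are list medians and dotted lines mark 2-fold. Kinases and effectors lie around 0 while many surface genes lie near the B-lineage genes.

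The pattern over all 4 arrays was compared with that of other genes. For each gene measured on all arrays its mean over the arrays was subtracted, and each array was centred on its median gene. The Euclidean distance to the mean pattern of the 8 members was then taken over the 4 arrays. Of 12003 other genes, the nearest was Lef1, at a distance of 0.17 log2, against a median distance of 2.32. Scn4b (0.26), Chst3 (0.28), Rnase12 (0.29) and Bfsp2 (0.32) followed. Among the members, Pou2af1 (0.11), Vpreb1 (0.16) and Blnk (0.18) lay nearest to their mean and Cd79b (0.82) farthest. Each member is part of that mean, so these distances cannot be set beside those of other genes.

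**Figure D4:**
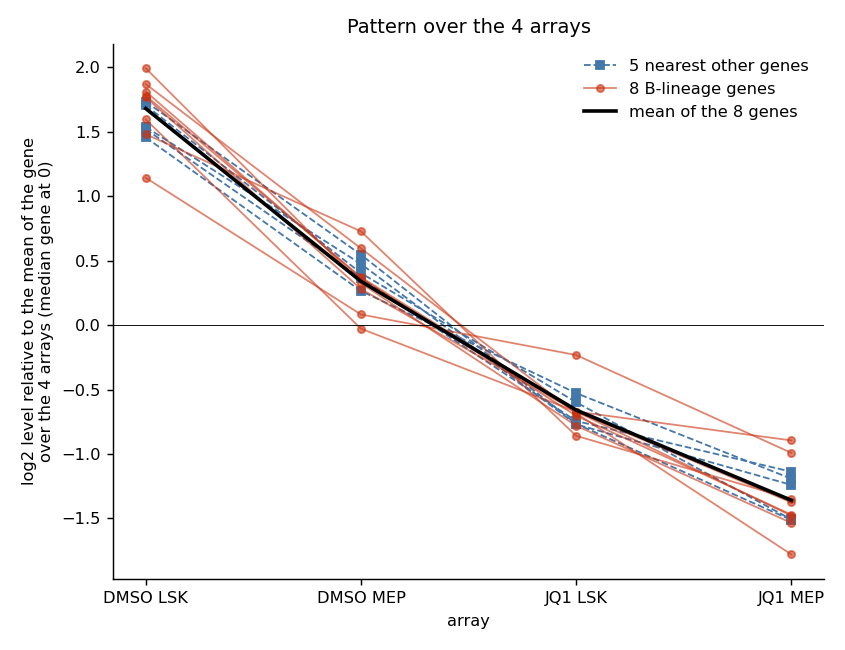
Centred level on the 4 arrays (vertical, log2 relative to the mean of each gene over the arrays, with the median gene at 0), with arrays along the horizontal axis. Red lines are the 8 measured B-lineage genes, the black line their mean and dashed blue lines the 5 nearest other genes. The black line goes from 1.68 on DMSO LSK to -1.36 on JQ1 MEP, and Cd79b shows the flattest course.

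Markers of other cell types also differed on these arrays. For the counts below, the shares of all measured genes under JQ1 were 3.22% lower and 0.544% higher in LSK. They were 5.77% lower and 0.981% higher in MEP. Of 10 mature B and plasma cell markers measured in LSK, 5 were 2-fold lower under JQ1 and 0 higher, with a median of -0.96, and in MEP 2 of 6 were lower and 1, Sdc1, was higher. The list counted 10 genes above background on DMSO LSK, JQ1 LSK and DMSO MEP and 6 on JQ1 MEP, of 12 on the array. Its summed level, in multiples of the 75th percentile, was 61.3, 44.8, 34.6 and 46.5. Xbp1 had the highest level of the list on each array, at 5.38, 5.27, 4.90 and 5.44 log2. This 1 gene makes up most of each sum. Between the LSK arrays it changed little, while Mzb1 read 3.43 (DMSO) and 0.93 (JQ1) and Jchain 2.18 and 1.02. The lower sum on JQ1 LSK therefore does not mainly follow Xbp1. Mzb1, an endoplasmic reticulum protein of B cells, was at -2.57 and -1.93, and Jchain, the joining chain of secreted antibodies, was at -1.22 in LSK and not well above background in MEP. The plasma cell receptor gene Tnfrsf17 was not well above background on any array, and Fcer2a only on DMSO MEP. Of the genes counted as lower here, Ms4a1 and Fcmr in LSK and Cd22 in MEP also stand in the B-lineage surface list.

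Natural killer markers were 2-fold lower for 5 of 9 in LSK, with a median of -1.46, and for 0 of 8 in MEP. Between 8 and 11 of the 11 were above background per array, with summed levels of 78.6, 75.4, 69.8 and 105. Nkg7 was the highest of them on each array, at 5.95, 6.05, 5.72 and 6.48 log2, and makes up most of these sums. Of 13 plasmacytoid dendritic markers, 6 were lower in LSK, led by Klk1 at -3.47 and Pltp at -2.40, and 1 of 12 in MEP, Siglech, at -1.29. On JQ1 LSK, Klk1 read -2.98 and Pltp -3.61, near the lowest level called well above background there, -3.80. Siglech in LSK was at -0.11. That list summed to 445, 363, 460 and 299, with 13, 13, 13 and 12 genes above background. Siglech was its highest gene on each array, at 8.03, 7.98, 8.53 and 7.58 log2, and makes up most of these sums. Of the 6 lower in LSK, Spib, Irf8, Ly6d and Ccr9 also stand in the B-cell lists above.

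T-cell markers were 2-fold lower for 3 of 9 in LSK and 0 of 10 in MEP, where 1, Tcf7, was higher. Between 9 and 11 of 14 were above background, with summed levels of 36.1, 30.5, 18.3 and 27.4, and Cd247 and Cd8b1 were not well above background on any array. Neutrophil and monocyte markers were mixed, with 2 of 11 lower and 2 higher in LSK, and 0 of 12 lower and 1 higher in MEP. They summed to 1823, 1159, 1287 and 2240, with 11 of 12 above background on DMSO LSK and 12 on each other array. The part of these cell types in the B-lineage differences was not tested.

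LSK markers had a median of 0.47 under JQ1 in LSK, with 2 of 13 (Hlf and Mecom) higher by 2-fold and 0 lower. Their summed level was 289, 369, 135 and 148, and that of MEP markers 25.4, 19.6, 225 and 277. In LSK 2 of 11 MEP markers, Car1 and Pf4, were lower under JQ1. In MEP 1 of 12 LSK markers, Procr, was lower and 1 of 13 MEP markers, Hba-a1, was higher.

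**Figure D5:**
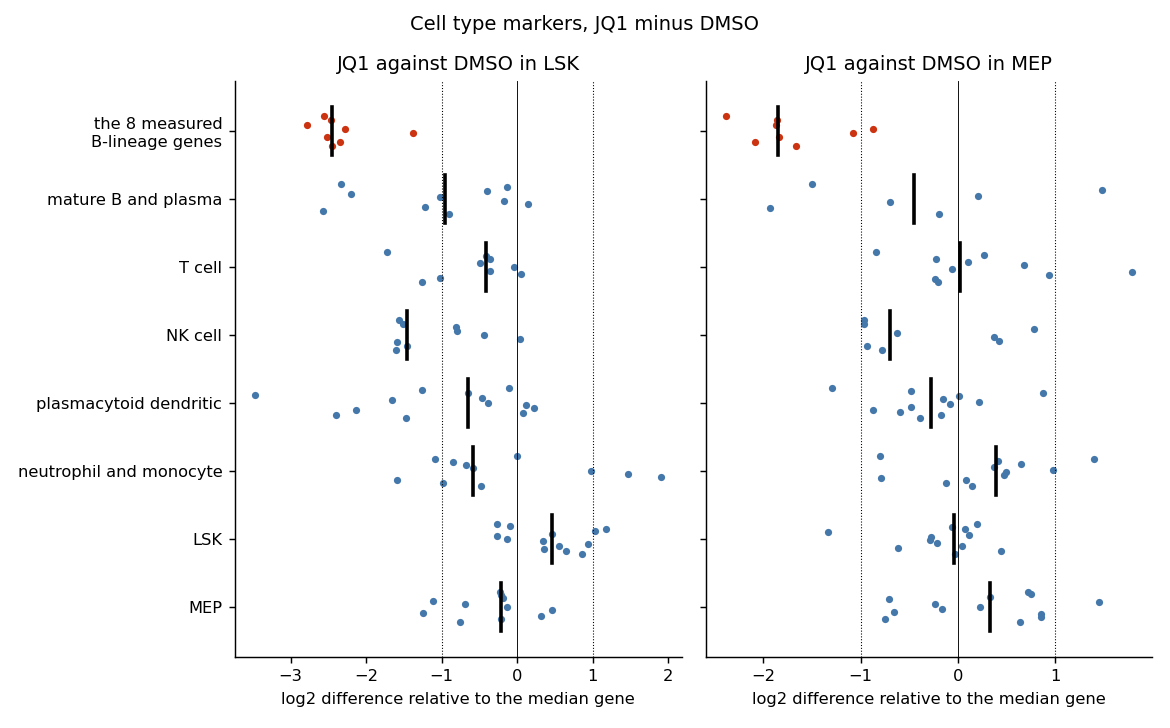
JQ1 minus DMSO in log2 relative to the median gene, in LSK (left) and MEP (right), for the 8 measured B-lineage genes (red) and 7 lists of cell type markers (blue). Each point is a measured gene, black bars are list medians and dotted lines mark 2-fold. In LSK the natural killer list has a median of -1.46 and the LSK list 0.47.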

How the data were processed

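RNA of sorted bone marrow LSK and MEP cells was measured on 4 one-colour arrays, 1 per group. Per the file headers, the authors extracted scans with Agilent Feature Extraction 10.7.1.1 on a design with mm9 probe positions, giving a background-subtracted and detrended intensity, its error and yes or no marks of other kinds per spot. The authors' deposited table holds a linear ratio to 1 number per array, within 1% of the scanner intensity for 100% of probes with a table value above 1 on each array. No source used here states how the table was made. Its 75th percentile was 1.002 or 1.003 on each array, so it nearly repeats the scaling used here. Here log2 intensities were averaged over spots without outlier marks, and the array's 75th percentile, also as log2, was subtracted. Probes were named by transcript through RefSeq (GRCm38.p6), with 28026 of 55681 receiving 1 symbol. Each gene took its brightest probe, and differences were centred on the median measured gene, which read 0.06 higher on JQ1 in LSK, 0.34 higher on JQ1 in MEP, and 0.22 lower and 0.07 higher in MEP than in LSK under DMSO and JQ1. The analysis used Python 3.11.15, pandas 2.3.3, R 4.3.3 and limma 3.58.1 (normexp, offset 50). Steps were tested on simulated data. The scanner files hold no mean signal, so the normexp alternative used median signals. With 1 array per group no test was run. Members and lists were chosen with earlier results of these data known. The genes named were all 9 members, up to 6 per list with the largest difference, and the 5 nearest patterns. Other list genes, such as Tcf3, Flt3, Dntt and the cell type markers, were named with their values known. Some genes that the rule names are not reported here. Alternatives were normexp, quantile normalization, another percentile, no centring, spike-in scaling, the mean over probes, no background filter, the deposited table, a 1.5-fold threshold and bounds. The number of arrays limits the precision.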

Additional observations from a re-analysis of the deposited data

Results flagged for a closer look

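Some list genes named in the text had JQ1 differences of opposite sign in LSK and MEP. These were 6 from the pathway lists and 8 cell type markers. Xbp1, named for its level, read -0.17 and 0.20 and is not counted. The difference between the cell types was not tested. Il7r read -0.88 in LSK and 0.36 in MEP, so that MEP minus LSK was 1.24 log2. Lyn read -0.57 and 0.06, a gap of 0.62. Dapp1 read 0.55 and -0.17, a gap of -0.72, and Fyn read 0.11 and -0.42, a gap of -0.52. The gap was 0.59 for Dntt and 0.39 for Tcf3. Among the markers, the gap was 2.50 for Sdc1, 2.15 for Tcf7, 2.14 for Hba-a1, 0.97 for Klf1, 0.95 for Gata1 and 0.46 for Ly6a, each lower under JQ1 in LSK and higher in MEP. It was -1.80 for Procr and -1.16 for Slamf1, both higher in LSK and lower in MEP. The gaps of Tcf3 and Ly6a are below the combined probe SD of 0.47. Before centring, Dapp1 and Slamf1 read higher under JQ1 in MEP too, from 5.08 to 5.24 and from 0.23 to 0.35. The B-lineage members that were measured had no opposite signs.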

How the results depend on the processing

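No paired analysis was possible because each group has 1 array. Of 256 member differences recomputed under 8 alternatives, 225 moved by less than the probe SD and 31 by more. Some alternatives could hardly move them. Another percentile shifts each array by 1 number, which centring removes. Each measured member has 1 probe, so the mean over probes changes only the median gene. The deposited table is the scanner intensity as a ratio to 1 number per array. No centring and no background filter shift all members of a comparison alike. The 225 thus partly hold by construction. Of the 31, 24 came with spike-in scaling without centring, which shifts all genes by 1 number per array, 6 with normexp and 1 with quantile normalization. Under that spike-in scaling 2 differences turned their sign, both for MEP against LSK under DMSO, Cd79b to 0.0036 and Ebf1 to 0.31. The JQ1 differences of the 8 measured genes stayed below 0 in LSK and in MEP under these 8 alternatives. The count of members 2-fold apart under JQ1 was 7 to 9 in LSK and 6 to 8 in MEP under all 10 alternatives, and the highest counts without the background filter include Pax5, which was not well above background. With spike-in scaling without centring, 0 members were 2-fold apart between MEP and LSK under DMSO and 3 under JQ1. MEP minus LSK of the JQ1 differences was then -0.66. The other B-lineage genes then counted 25 that were 2-fold lower under JQ1 in MEP with 0 higher, and 12 lower and 7 higher in LSK. In that setting the median gene itself was at -0.58 in MEP and 0.72 in LSK. No share of all measured genes was taken there. For MEP against LSK under JQ1 the count was 0 with normexp and 6 at 1.5-fold. Of the other B-lineage genes, 14 were 2-fold apart under JQ1 in MEP as reported, against 7 with normexp and 9 without centring. Counting members by bounds added none, since no member was above background on only 1 of a pair of arrays. The cause of the normexp changes was not tested. The lowest signals of Cd79a and Ebf1 were 30.6 and 48.3. The 6 normexp moves also include Pou2af1 in LSK, at -2.08 rather than -2.45, with a signal of 302 on JQ1 LSK.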
